A study of Rattus norvegicus with 16 samples.

Results

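The genes of potassium channel subunits were followed in the stomach and the middle part of the small intestine of suckling rats. Members were the genes whose name on the array began with Kcn, a family letter and a number, with Kcnq1 and Kcne2 left out, and each gene was represented by its probe with the highest mean Cy5 signal. The rule gave 90 genes, measured by 130 probes, among 19749 distinct gene names on the array. The samples were 16 tissues of Wistar rats in 4 groups of 4. Control rats (group C) received saline and OH rats received obestatin at 250 nmol/kg body weight, in both cases given by gavage between day 14 and day 21 of life, 2 doses daily, and stomach and middle intestine were taken at day 21. The rats of all groups were suckling pups with no genetic change, drawn from several litters. Each tissue RNA was labelled with Cy5 and hybridised against the same Cy3-labelled reference, which pooled RNA of every rat, so a value below is a log2 ratio of tissue signal over reference signal. A ratio is a level relative to the pool and cannot be set against the ratio of another gene.

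Potassium channels let potassium leave a cell, which sets the resting voltage of its membrane and the force that drives other ions. In the acid-secreting mucosa of the stomach they return potassium to the lumen for the proton pump, in the intestinal crypt they hold the voltage that drives chloride secretion, and in gut muscle and enteric neurons they shape the rhythm of contraction and the firing of action potentials. The pore-forming subunits fall into voltage-gated (Kv, KCNQ and EAG or ERG), inward rectifier (Kir), two-pore-domain (K2P) and calcium- or sodium-activated families, and the Kv beta, KChIP, KCNE and BK beta subunits modify them.

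The values below were read by probes of 60 bases. The probes of the genes with the clearest tissue differences are shown because each value is the signal of that sequence alone. All 60 bases are given where at least 1 reading frame of the probe has no stop codon over its length, and otherwise, or for Kcne3, only the first 30, from 5′ to 3′, with the position on rn4, the rat genome build on which the array design was annotated.
Kcnj16 (chr10:100515861-100515920, first 30 bases): caatatcttatctcctaagcacaacagatg
Kcnj15 (chr11:35593977-35594036): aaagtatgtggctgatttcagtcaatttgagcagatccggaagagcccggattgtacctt
Kcnj13 (chr9:86207003-86207062): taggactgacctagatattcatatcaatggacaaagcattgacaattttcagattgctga
Kcne1 (chr11:32344803-32344862): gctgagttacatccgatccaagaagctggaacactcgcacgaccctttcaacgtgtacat
Kcnk7 (chr1:208330417-208330476, first 30 bases): gaatgaagatgtcatgggatgatgccaatg
Kcnip2 (chr1:251011241-251011585): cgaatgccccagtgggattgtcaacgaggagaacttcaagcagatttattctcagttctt
Kcne3 (chr1:157564373-157564432, first 30 bases): tatacaagatcaacgagaaattggtaagag
Kcnk5 (chr15:4424253-4424312, first 30 bases): cctgtgagatgtcctaagctgaatgtcccg
Kcnn4 (chr1:79625914-79627647): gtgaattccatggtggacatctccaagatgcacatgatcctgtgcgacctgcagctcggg
The Kcnip2 probe covers 345 bases of the genome and the Kcnn4 probe 1734, so each of these probes is split in the genome and joins sequence from more than 1 block of the transcript.

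Each group lay on its own slide, and the 2 slides of OH rats were scanned on another day than the 2 slides of C rats. Treatment, litter, slide and scan day, and likewise tissue and slide within a treatment, cannot be told apart. The median raw Cy3 signal was 188 to 195 on the C arrays and 341 to 399 on the OH arrays, and 69.4% to 77.6% of spots were well above background in Cy5. Among markers of gut cell types, all 10 markers of acid-secreting and surface mucosa were higher in stomach and 9 of 11 enterocyte genes were higher in middle intestine, both in C and in OH rats, which matches the tissue labels. The stomach arrays differed among themselves in muscle. The mean log2 ratio of 10 striated muscle markers was 3.68, 3.30 and 3.99 in replicates 1, 3 and 4 of C stomach but -0.97 in replicate 2, and 0.87 at most in OH stomach. The mean of 8 smooth muscle markers was 0.96 and 0.16 in replicates 1 and 4 of OH stomach and lay between -2.59 and -1.32 on the other 6 stomach arrays. Several results that rest on these 3 arrays (C stomach replicate 2 and OH stomach replicates 1 and 4) are given with and without them.

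More of the potassium channel genes were detected in stomach than in middle intestine. A gene counts as detected in a group when its probe was marked well above background in the Cy5 channel on each of its 4 arrays. In C stomach 54 of 90 genes were detected, or 60%, against 70.7% of all named genes there. In OH stomach the count was 53, with 70.3% of all named genes. In C middle intestine it was 45, with 65.6% of all named genes, and in OH middle intestine 46, with 67.4%. A total of 41 genes were detected on all 16 arrays and 15 on none. Those at or near background throughout included Kcnj10, the usual partner of Kcnj16, Kcnj2 and Kcnj6 of the Kir family, Kcna3, Kcna4 and Kcnc1 of the Kv family, and Kcnt2. Genes that were sought for their known roles but passed on too few arrays to be tested were Kcna5 (1 of 16 arrays), Kcnn2 (1), Kcnq5 (5), Kcnt1 (3), Kcnk9 (1), Kcne1l, now named Kcne5 (1), and Kcnj11, the pore of the ATP-sensitive channel of endocrine cells (3).

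Detection was also counted by family, to be read beside the shares of all named genes given above. The K2P family had 10 of 14 genes detected in each of the 4 groups, the BK family 4 of 5, the KCNE family 3 of 4 and the EAG and ERG family 4 of 8. The Kir family had 8 of 15 genes detected in C stomach and 9 in OH stomach but 5 in each intestinal group. The voltage-gated Kv family had 17 and 15 of 27 in C and OH stomach and 12 and 14 in C and OH middle intestine. Of the 4 KChIP genes, 1 was detected in each stomach group and 2 in each intestinal group. The KCNQ family had 3 of 4 genes detected in each stomach group, 2 in C and 1 in OH middle intestine. The SK and IK family had 3 of 4 in C stomach and 2 in each other group. Of the 3 Kv beta genes, 2 were detected in OH stomach and 1 in each other group. Neither gene of the Slo2 family was detected in any group. No test was made of these counts.

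**Figure D1:**
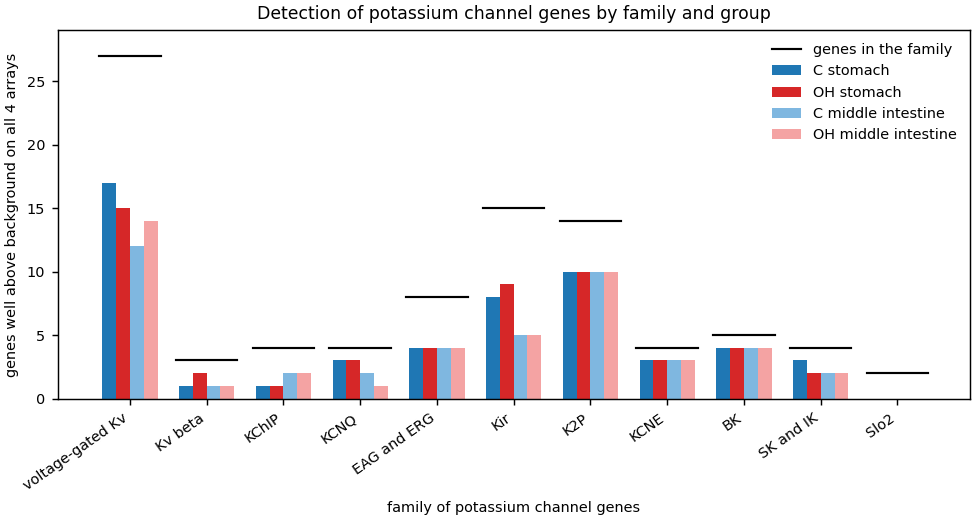
Bars give the number of potassium channel genes well above background on all 4 arrays of a group, by family, and black lines the number of genes in the family. The Kir bars are higher for stomach (8 and 9) than for middle intestine (5 and 5), whereas the K2P bars are level at 10.

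A gene entered the test when it was detected in at least 1 group with at least 3 values in each group, which 58 of the 90 genes did. Because a gene low in one tissue could pass through the other, the counts below are given again for the 41 genes detected on all 16 arrays. In C rats 31 of the 58 genes passed (limma across all probes, Benjamini-Hochberg adjusted p below 0.05), 16 higher in stomach and 15 higher in middle intestine. Of all probes tested, 44.9% passed in this comparison, 22.7% higher and 22.3% lower in stomach, beside 53.4% of the channel genes. Of the 41 genes detected everywhere, 24 passed, beside 45.3% of the probes detected everywhere. The median difference was -0.05 over the 58 genes and -0.01 over all probes. In whole tissue, fewer cells of a type and less RNA per cell cannot be told apart.

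The genes with wide differences between the tissues included 4 of the Kir family, which were higher in stomach. Kcnj16, a pH-sensitive inward rectifier subunit of transporting epithelia, had log2 ratios of 1.76, 2.16, 2.02 and 1.16 in the 4 C stomach arrays and of -5.16, -5.20, -5.60 and -4.78 in the 4 C middle intestine arrays. The groups were far apart, and in the intestine Kcnj16 was not well above background on any of 8 arrays. With the dim arrays set to the lowest signal that was still well above background, the level in C stomach was at least 121-fold that in C middle intestine, and in OH rats at least 94.2-fold (adjusted p = 1.2e-10 and 9.8e-11). Kcnj15, which forms channels with Kcnj16 in epithelia, was the only other gene detected on all 8 stomach arrays and on none of the 8 intestinal arrays. Its C stomach ratios were 2.08, 2.59, 1.97 and 1.65, and its level was at least 14.5-fold that of C middle intestine and at least 9.53-fold in OH rats (adjusted p = 5e-08 and 1.5e-07).

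Kcnj1, the renal outer medullary channel, was higher in stomach by at least 4.02-fold in C rats, where 3 of 4 stomach arrays detected it, and by at least 2.98-fold in OH rats (adjusted p = 8.6e-05 and 5.4e-05). This rests on 1 of its 3 probes, the one designed on an older mRNA record, since the other two were not well above background on any of 16 arrays. Kcnj13, an inward rectifier of choroid plexus, retina and gut epithelium, had the widest spread within groups. Its ratios were 1.48, 3.47, 1.40 and 0.76 in C stomach and -2.36, -0.56, 1.16 and -1.14 in C middle intestine, so the groups overlapped, and in OH middle intestine 1 array stood at 1.38 and the others between -1.67 and -1.38. The difference was 2.5 ± 0.82 (SE) in C and 3.00 ± 0.82 in OH rats (adjusted p = 0.022 and 0.0095). In C rats it was 1.94 without C stomach replicate 2 (adjusted p = 0.072) and did not pass, and it was also lost without replicate 1 or replicate 4 of C middle intestine (1.96 and 2.37, adjusted p = 0.076 and 0.051).

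Other genes that were higher in stomach included members of the K2P, KCNE, EAG and Kv families. Kcnk7, a K2P subunit that gives no current by itself, stood at 1.49 ± 0.47 (SD, n = 4) in C stomach and -1.88 ± 0.30 in C middle intestine. The difference was 3.36 ± 0.25 (SE) in C and 2.83 ± 0.25 in OH rats (adjusted p = 7.1e-08 and 4.8e-07), and its second probe gave 3.79 and 3.08. Kcne1, which slows the opening of the KCNQ channel it joins, had ratios between -0.24 and 0.45 in C stomach and between -3.0 and -2.72 in C middle intestine. Its difference was 2.96 ± 0.22 in C and 3.07 ± 0.22 in OH rats (adjusted p = 7.8e-08 and 5.5e-08), with all arrays of both tissues above background. Kcnk16, an alkaline-activated K2P channel known from pancreatic islets, was higher by 2.17 ± 0.33 and 2.42 ± 0.33 (adjusted p = 0.00011 and 4.4e-05). Kcnk6, a widely expressed K2P channel, was higher by 0.91 ± 0.17 and 0.74 ± 0.17 (adjusted p = 0.00059 and 0.0032). Kcnh3, an EAG-type channel of forebrain neurons, was higher by 1.80 ± 0.26 and 1.88 ± 0.26, with both of its probes in agreement.

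**Figure D2:**
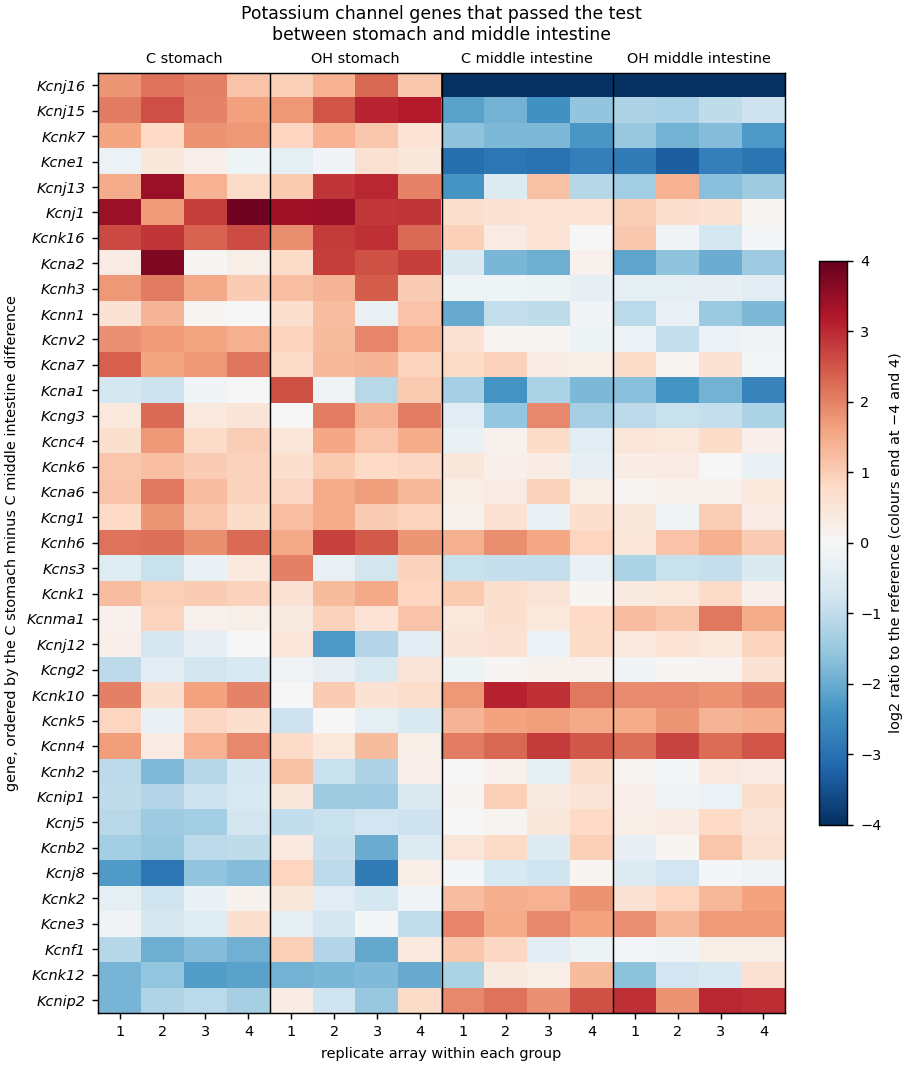
Each row is a potassium channel gene that passed between the tissues in C or in OH rats, each column 1 array, and the colour the log2 ratio to the reference, with colours ending at -4 and 4. Kcnj16, Kcnj15, Kcnk7 and Kcne1 separate the 8 stomach arrays from the 8 intestinal arrays, whereas Kcnj8, Kcnf1 and Kcnh2 in OH stomach are high in replicates 1 and 4 alone.

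Other channel genes, among them Kcne3, Kcnk5 and Kcnn4 of the list of epithelial roles, were lower in stomach. Kcne3, the subunit that keeps the KCNQ channel of crypt cells open, had ratios of 1.96, 1.47, 1.91 and 1.62 in C middle intestine and of -0.11, -0.63, -0.49 and 0.64 in C stomach. It was lower in stomach by 1.89 (SE 0.26) in C rats, and in OH rats it stood at 1.64 ± 0.23 (SD) in intestine and -0.54 ± 0.39 in stomach (adjusted p = 3.6e-05 and 1e-05). Kcnk5, an acid-sensitive K2P channel of transporting epithelia, had ratios between 1.36 and 1.67 in C middle intestine and of 0.87, -0.26, 0.82 and 0.68 in C stomach, a difference of -1.01 ± 0.23 (adjusted p = 0.0023), and one of -1.96 ± 0.23 in OH rats (adjusted p = 8.7e-06). Kcnn4, the calcium-activated channel of intermediate conductance in crypt cells and leukocytes, differed by -1.08 ± 0.30 and -1.74 ± 0.30 (adjusted p = 0.01 and 0.00038), and its second probe by -1.12 and -1.64. Beside Kcnn4, both leukocyte markers that could be tested were also lower in stomach, and their part in the result was not tested. Kcnk10, a stretch-activated K2P channel, differed by -0.90 ± 0.33 and -1.32 ± 0.33 (adjusted p = 0.038 and 0.0055), and in C rats by -0.60 with the 3 stomach arrays left out (adjusted p = 0.11). Of the 8 epithelial channel genes tested from the list of known roles, Kcnj13, Kcnj15, Kcnj16 and Kcnk6 were thus higher and Kcne3, Kcnk5 and Kcnn4 lower in C stomach, and Kcnk1 did not pass in C (0.45 ± 0.22, adjusted p = 0.1).

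A further set of genes higher in the intestine carried KChIP, K2P and G-protein-gated subunits. Kcnip2, a calcium-binding subunit that carries Kv channels of the Kcnd type to the membrane, was detected on all 8 intestinal arrays and on 1 of 8 stomach arrays. Its ratios were 1.92, 2.19, 1.83 and 2.55 in C middle intestine and -1.87, -1.22, -1.07 and -1.34 in C stomach, and its level in the intestine was at least 9.01-fold that in stomach (adjusted p = 1e-05). The related Kcnip1 differed by -1.36 ± 0.36 (adjusted p = 0.0066). Kcnk2, a stretch-activated K2P channel of gut muscle, stood at 1.47 ± 0.24 (SD) in C middle intestine and -0.33 ± 0.38 in C stomach, and a probe on another transcript of the gene gave a difference of -1.75 beside -1.80. Kcnj5, a G-protein-gated Kir subunit, differed by -1.5 ± 0.19 in C and -1.33 ± 0.19 in OH rats (adjusted p = 2.1e-05 and 7.3e-05). Kcnk12, a silent K2P subunit, differed by -2.10 ± 0.47 and -1.26 ± 0.47 (adjusted p = 0.0022 and 0.045), with C intestinal ratios from -1.25 to 1.27.

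Of the 9 tested genes known from smooth muscle, interstitial cells and vessels, 4 passed in C rats, beside 44.9% of all probes, and 2 in OH rats, beside 38.2%, and each of these was lower in stomach. In C rats they included Kcnj8, the pore of the vascular ATP-sensitive channel (-1.77 ± 0.59, adjusted p = 0.024), Kcnh2, the ERG channel of pacemaker cells and muscle (-1.28 ± 0.41, adjusted p = 0.021), and Kcnk2. Kcnmb1, the beta subunit of the muscle BK channel, stood at -1.24 ± 0.49 (adjusted p = 0.053). Kcnn3, Kcnk3 and the BK pore gene Kcnma1 had differences between -0.24 and -0.17 on their brightest probes. The second probe of Kcnh2 gave -0.37 (adjusted p = 0.41), and the other 2 probes of Kcnma1 gave -1.14 and -1.73 (adjusted p = 0.041 and 0.016), so for these genes the call depends on the probe. In OH rats Kcnma1 passed on its brightest probe (-0.73, adjusted p = 0.022). Its other 2 probes there gave 0.069 and -0.375 (adjusted p = 0.91 and 0.61). The list of smooth muscle markers had a median difference of -1.37 between C stomach and C middle intestine, with 2 of 8 genes past the threshold. Kcnf1, a silent Kv subunit, and Kcnb2, with which such subunits assemble, were also lower in C stomach (-2.01 ± 0.53 and -1.66 ± 0.44, adjusted p = 0.0067 and 0.0075).

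Genes of the Kv family known from neurons or striated muscle were in part higher in stomach. Kcna2, a Kv channel of axons, had ratios of 0.34, 3.73, 0.05 and 0.22 in C stomach and of 0.77, 2.76, 2.55 and 2.75 in OH stomach, so 1 array stood far above the rest in C and 1 far below in OH. Its difference was 2.14 ± 0.74 in C (adjusted p = 0.029), where without C stomach replicate 2 it was 1.25 (adjusted p = 0.07), and 4.00 ± 0.74 in OH rats (adjusted p = 0.00061), at least 10.9-fold since no array of OH middle intestine detected it. Its relative Kcna1 passed in OH rats alone (at least 6.64-fold for the group means, adjusted p = 0.0017), and stood at 1.27 ± 0.58 in C (adjusted p = 0.087). The OH stomach ratios of Kcna1 were 2.549, -0.146, -1.123 and 1.055, beside -2.68 to -1.67 in OH middle intestine. They were thus highest in replicates 1 and 4, which also stood apart in smooth muscle markers. Kcna7, known from skeletal and heart muscle, was higher by 1.40 ± 0.23 in C and 0.75 ± 0.23 in OH stomach (adjusted p = 0.00024 and 0.021), and Kcnv2, a silent subunit of photoreceptors, by 1.49 ± 0.23 and 1.77 ± 0.23. The striated muscle markers were 8 of 10 higher in C stomach, with a median of 3.14. In C stomach replicate 2, where these markers were at -0.97, Kcna7 was also lowest of the C stomach arrays, at 1.59 beside 1.73 to 2.39 on the other 3, and the highest intestinal array was at 0.92. The part of the striated muscle markers in the result was not tested. Kcng3, a silent subunit, passed in OH rats (2.42 ± 0.67, adjusted p = 0.01), but its Cy3 signal, which is the same reference on every array, also differed by 2.28 between the slides.

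The same comparison in OH rats shared no array with that in C rats. There 30 of 58 genes passed, 20 higher in stomach and 10 lower, beside 38.2% of all probes, 19.2% higher and 19.1% lower. Of the 41 genes detected everywhere, 21 passed, beside 38.3% of such probes. A total of 23 genes passed in both comparisons, 74.2% of those in C and 76.7% of those in OH, and each of the 23 had the same direction, 15 higher in stomach and 8 lower. Of all 58 genes, 53 had the same sign. The same overlap was not computed over all probes, so these shares are not shown to be particular to the channel genes. The 8 genes that passed in C alone included Kcnb2, Kcnc4, Kcnf1, Kcng2, Kcnh2, Kcnip1 and Kcnj8, and the 7 that passed in OH alone were Kcna1, Kcng3, Kcnh6, Kcnj12, Kcnk1, Kcnma1 and Kcns3, with the probe limits of Kcnh2 and Kcnma1 given above. The test of the difference between both comparisons passed for 0 of the 58 genes by limma and for 0 probes of the array. At an unadjusted p below 0.05 it gave 2 genes (Kcnk5 and Kcnab2), both with the lower response in stomach and none with the higher, beside 5.85% of all probes, 3.87% lower and 1.98% higher, so these genes are not shown to differ in their tissue pattern between C and OH rats.

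**Figure D3:**
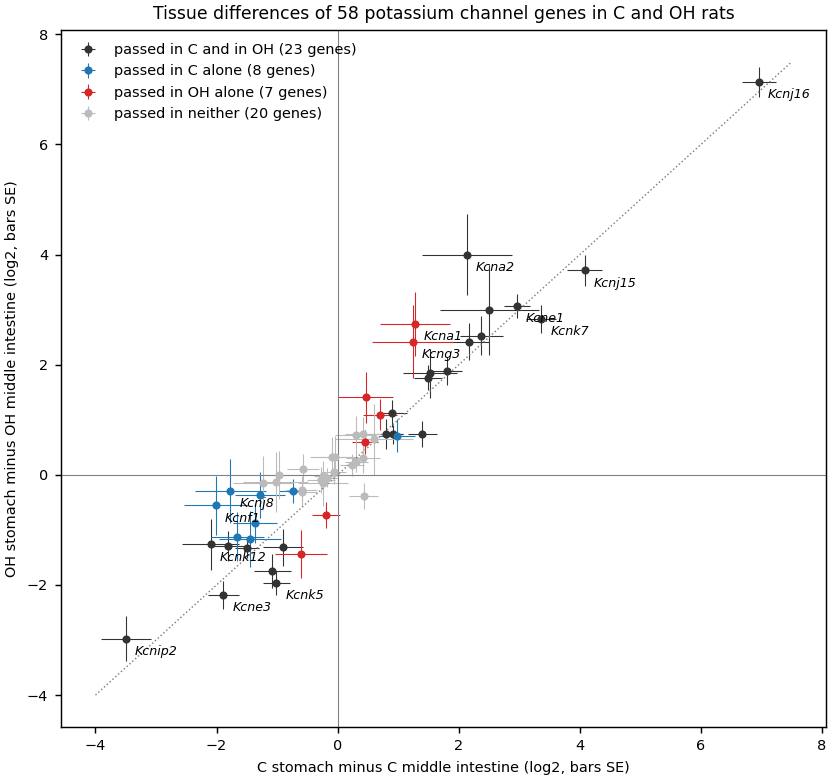
Each point is 1 of 58 potassium channel genes, with the stomach minus middle intestine difference in C rats on the x axis and in OH rats on the y axis, both in log2 with SE, and the dotted line marks equal differences. Kcnj16 lies near 7 on both axes and Kcnip2 near -3, while Kcnj8 and Kcnf1 lie nearer to 0 in OH than in C.

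In OH stomach several genes known from muscle split by array. Kcnj8 had ratios of 0.85 and 0.28 in replicates 1 and 4 of OH stomach and of -1.04 and -2.80 in replicates 2 and 3. Kcnmb1 had 1.56 and 0.74 in replicates 1 and 4 and -0.39 and -1.58 in the others. Kcnh2 had 1.19 and 0.21 beside -0.89 and -1.23. The smooth muscle markers had the same order, 0.96 and 0.16 beside -1.32 and -2.59. Kcnf1 and Kcnd2, a Kv channel of neurons and muscle, were likewise highest in replicates 1 and 4. Without these arrays and C stomach replicate 2, only replicates 2 and 3 remained in OH stomach. In OH rats the differences of Kcnj8, Kcnh2 and Kcnmb1 were then -1.54, -1.24 and -1.22 (adjusted p = 0.014, 0.002 and 0.014). The OH arrays left out were those where these genes were highest, so the lower values follow from the choice and are no separate test.

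**Figure D4:**
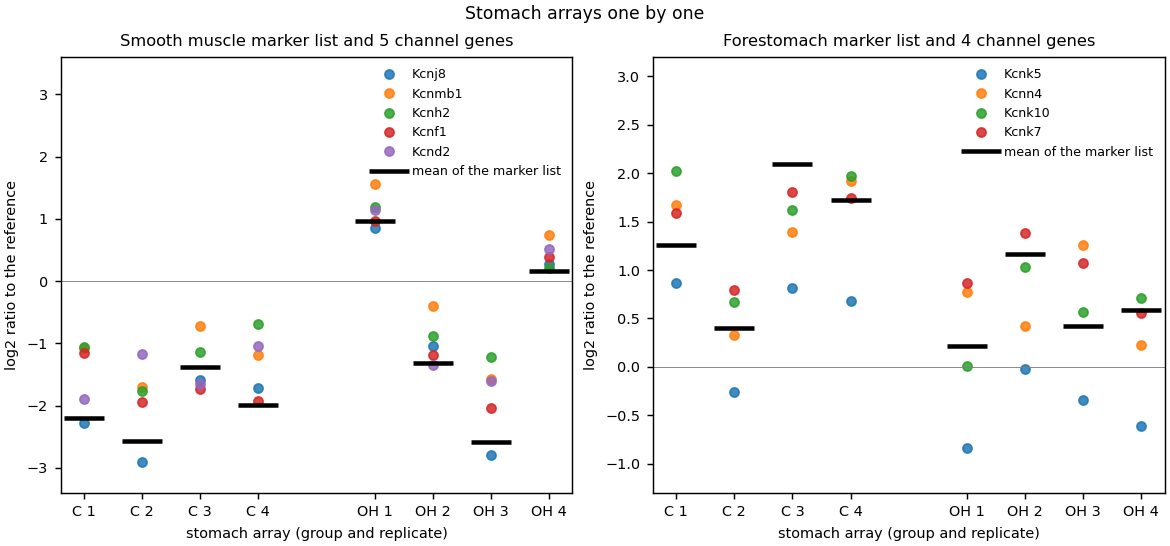
Points give the log2 ratio of named channel genes on each of the 8 stomach arrays and black bars the mean of a marker list on that array (8 smooth muscle genes on the left, 4 forestomach genes on the right). On the left the points and the bar are highest in OH replicates 1 and 4; on the right Kcnk5 is above 0.6 on 3 C arrays and below 0 on C replicate 2 and all OH arrays.

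In the stomach no potassium channel gene passed between OH and C rats by limma, and neither did any probe of the array. At an unadjusted p below 0.05, 13 of the 58 genes differed, 8 higher and 5 lower in OH, or 22.4% beside 10.6% of all probes, of which 5.39% were higher and 5.22% lower. With the test named in the study's methods, Kcnk5 and Kcna7 passed, beside 3.35% of all probes. Kcnk5 had the lowest p. Its ratios were 0.87, -0.26, 0.82 and 0.68 in C stomach and -0.83, -0.03, -0.35 and -0.61 in OH stomach, so the groups overlapped through C replicate 2 alone. The difference was -0.98 ± 0.23 (exact permutation p = 0.057, adjusted p = 0.23), of which -1.09 was in the Cy5 signal and -0.11 in the reference. Without C stomach replicate 2 it was -1.24 (adjusted p = 0.0019), and with the 3 stomach arrays left out it was -0.98 (adjusted p = 0.011). Replicate 2 was the C array where Kcnk5 was lowest, so the wider difference without it follows from the choice and is no separate test. Kcna7 differed by -0.88 ± 0.23 (exact permutation p = 0.029, the smallest that 4 against 4 arrays can give, adjusted p = 0.26), with no overlap of the groups, and the striated muscle markers had a median difference of -2.26 in the same comparison. Kcnk10 differed by -0.99 ± 0.33 (exact permutation p = 0.086, adjusted p = 0.34), and by -1.29 without C stomach replicate 2 (adjusted p = 0.05, just under the threshold). Replicate 2 was also the lowest C stomach array of Kcnk10, so that value is no separate test either. With the 3 stomach arrays left out, a choice made after the data were seen, Kcna2 (2.45) and Kcne4 (1.13) passed as higher in OH, and Kcnk5 and Kcnj12 (-1.70) as lower. The share of all probes that passed in this setting is not given, so these genes are not shown to stand out from the array.

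Among the genes with a lower ratio in OH stomach, Kcnk5, Kcnk10 and Kcnn4 had their lowest C value in replicate 2. There the 4 markers of the forestomach, the squamous part of the rat stomach, averaged 0.40, beside 1.25, 2.10 and 1.73 in the other C stomach arrays and 0.22 to 1.16 in OH stomach. The 10 striated muscle markers were also low there, at -0.97 beside 3.30 to 3.99 in the other C stomach arrays. In OH stomach they averaged -0.445 to 0.874. The part of either marker list in the result was not tested. The 8 genes with a higher ratio in OH at an unadjusted p below 0.05 were Kcnj8 (1.44 ± 0.59), Kcnmb1 (1.25 ± 0.49), Kcnf1 (1.22 ± 0.53), Kcnip2 (1.06 ± 0.41), Kcnh2 (0.98 ± 0.41), Kcnd3 (0.57 ± 0.20), Kcng2 (0.57 ± 0.22) and Kcnk3 (0.41 ± 0.17). Of these, Kcnip2 was well above background on 0 of 4 C stomach and 1 of 4 OH stomach arrays, and it entered the test through the intestine. The Cy5 signal of Kcnd3 differed by 0.02 and its Cy3 reference signal by -0.56 (adjusted p = 4.6e-05). The smooth muscle markers had a median difference of 1.42. With the 3 stomach arrays left out, the differences of Kcnj8, Kcnh2 and Kcnf1 were -0.06, -0.10 and -0.01. That setting leaves out replicates 1 and 4 of OH stomach, where these genes were highest, so it is no separate test.

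In the middle intestine no channel gene passed by limma either, beside 0.368% of all probes, 0.335% higher and 0.0331% lower. At an unadjusted p below 0.05, 4 genes were higher and 1 lower in OH, or 8.62% beside 10.5% of all probes, of which 6.55% were higher and 3.9% lower, and with the test of the study's methods 3 passed (Kcnma1, Kcnj15 and Kcnd3), beside 4.43% of all probes. The ratio and the tissue signal did not move together here. Kcnma1, the BK pore, had ratios of 0.42, 0.65, 0.42 and 0.78 in C and 1.23, 1.07, 2.10 and 1.49 in OH middle intestine, with no overlap, a difference of 0.90 ± 0.23 (exact permutation p = 0.029, adjusted p = 0.12). In the Cy5 signal alone the difference of Kcnma1 was -1.15, and in the reference signal of this probe it was -2.04 (adjusted p = 1.6e-10). The other 2 probes of the gene gave ratio differences of -0.32 and -0.18. Kcnd3, a Kv channel of muscle and neurons, was at 0.63 ± 0.20 in the ratio (exact permutation p = 0.029), -0.51 in Cy5 and -1.12 in Cy3. Kcnj15 was at 0.92 ± 0.29 (exact permutation p = 0.029), 0.06 in Cy5 and -0.85 in Cy3, and was not well above background on any of these arrays. The Cy3 signal of 23 of the 58 genes differed between the slides of OH and C middle intestine at an adjusted p below 0.05, beside 60.7% of all probes, and in stomach that of 16, beside 43.8%.

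**Figure D5:**
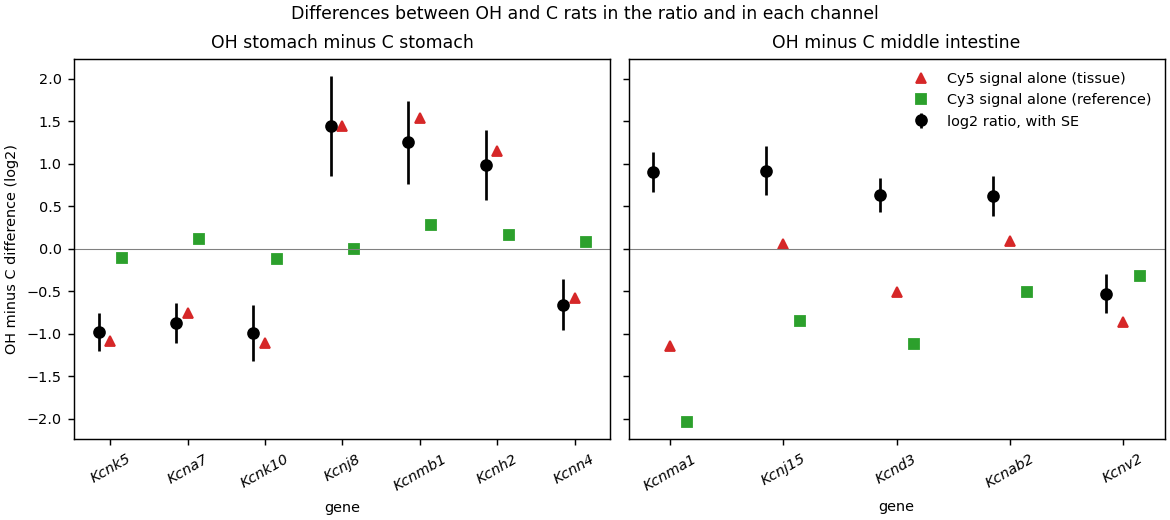
For named genes, black points give the OH minus C difference of the log2 ratio with SE, red triangles that of the Cy5 tissue signal and green squares that of the Cy3 reference signal. For the stomach genes plotted the ratio lies nearer to Cy5 than to Cy3, whereas for Kcnma1, Kcnj15, Kcnd3 and Kcnab2 in middle intestine the ratio is above 0 and the reference signal is between -2.04 and -0.51.

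Genes that work with these channels were followed from a list of 20 partners, of which 14 could be tested. In C rats 4 were higher and 3 lower in stomach, beside 44.9% of all probes in both directions, and in OH rats 3 and 2, beside 38.2%. Lrrc26, a gamma subunit that opens BK channels of secretory epithelia without stimulation, was higher in stomach by 3.00 ± 0.22 and 2.51 ± 0.22 (adjusted p = 7.9e-08 and 5.7e-07). Atp1b1, the beta subunit of the sodium pump, was higher by 1.68 ± 0.32 and 1.54 ± 0.32. Cftr, the chloride channel that secretes with Kcne3 and Kcnn4 in crypts, differed by -2.54 and -2.71 (adjusted p = 5.3e-05 and 3.1e-05). Dpp10, a partner of Kcnd channels, differed by -1.37 ± 0.38 in C (adjusted p = 0.0093). Abcc8, the receptor subunit that joins Kcnj11, differed by 0.73 ± 0.20 in C (adjusted p = 0.0079), and Abcc9, which joins Kcnj8, by -0.69 ± 0.43 (adjusted p = 0.21). No partner passed between OH and C rats in either tissue.

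Some channel genes with opposite tissue patterns lie close together in the genome. Of the members placed on rn4, 16 pairs had probes within 500 kb of each other. Kcnk16 and Kcnk5 are 130 kb apart on chromosome 15, with Kcnk16 higher and Kcnk5 lower in stomach in both C and OH rats. Kcnj1 and Kcnj5 are 229 kb apart on chromosome 8, again the first higher and the second lower in stomach, with the probe limit of Kcnj1 given above. Other pairs went the same way in C rats. Kcna1 and Kcna6, 108 kb apart, stood at 1.27 and 0.90 (adjusted p = 0.087 and 0.0079). Kcnip1 and Kcnmb1, 360 kb apart, stood at -1.36 and -1.24 (adjusted p = 0.0066 and 0.053). Kcnj16 and Kcnj2 are 60.2 kb apart on chromosome 10, and Kcnj2, an inward rectifier of heart and vessels, was at background on all 16 arrays. These pairs are a description and were not tested against other pairs.

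Probes of one gene did not always agree. Of 13 genes with 2 or more tested probes, 3 had probes of opposite sign between C stomach and C middle intestine (Kcnd3, Kcng1 and Kcnk13), and for Kcng1, a silent Kv subunit, both signs passed. The 2 brightest probes of Kcng1, among them the one chosen by the rule, carry a run of a single repeated triplet, shown in capitals in the 30 bases printed here from base 14 of the probe, whereas the 2 other probes do not.
Kcng1, brightest probe (chr3:159427597-159427643): gaaGAGGAGGAGGAGGAGGAGGAGGAGGAG
Kcng1, next probe (chr3:159427597-159427617): agaAGGAGGAGGAGGAGGAGGAGGAGGAGG
Kcng1, probe on the RefSeq mRNA (chr3:159427825-159427884): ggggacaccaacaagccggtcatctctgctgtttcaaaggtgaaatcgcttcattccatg
Kcng1, other probe on the RefSeq mRNA (chr3:159429234-159429293): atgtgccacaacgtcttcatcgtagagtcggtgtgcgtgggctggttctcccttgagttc
The repeat is 29 and 34 bases long in these probes, and only 47 and 21 of their 60 bases are placed on rn4. Among 30367 probes of the array, 20 had a 3-base repeat of at least 29 bases. The brightest Kcng1 probe was higher in C stomach by 0.80 ± 0.28 (adjusted p = 0.029), the first RefSeq probe differed by -2.46 (adjusted p = 9.5e-05) and the other was at 0.07 (adjusted p = 0.81). The Kcng1 values are therefore uncertain, and without the gene 30 channel genes passed in C rats and 29 in OH rats.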

How the data were processed

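RNA of 16 tissue samples was measured on 2-colour Agilent rat 60-mer arrays. The authors scanned the arrays and deposited Feature Extraction files, in which the processed Cy5 and Cy3 intensity of a spot is background-subtracted, detrended and Lowess dye-normalized. The labels name Feature Extraction 10.7.3.1, the file headers a later release. The authors' deposited table of log10 ratios differed from the scanner values by at most 0.005 and served as an alternative. No dye was swapped, so dye bias stays in every ratio.

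Here log2 of Cy5 over Cy3 was taken from the processed signals without control or outlier-marked spots, spots of a probe were averaged, and no scaling between arrays was applied. Probes marked well above background in the Cy5 channel on each of the 4 arrays of some group, with at least 3 values per group, were kept (21174 of 30367). limma 3.58.1 in R 4.3.3 fitted 1 mean per group over all 16 arrays, with Benjamini-Hochberg adjustment over all kept probes at 0.05. The number of arrays limits the precision. On simulated data with 200 changed probes, limma recovered 60.5% of changes of 1 and 94.5% of changes of 2 (log2) between C stomach and C middle intestine. Between OH and C the rates were 67% and 93% in stomach and 59.5% and 96% in middle intestine. All other probes were set equal between the groups compared, and noise was independent between probes. The data had many more tissue differences and array-wide differences in muscle, so these rates do not carry over directly. "At least" folds were computed on Cy5 signals after loess and Aquantile scaling, as the mean of the brighter group over the mean of the dimmer one, each dim array taken at no less than its lowest signal well above background, and can hold dye bias.

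Named genes were a list fixed by known role, the 10 largest differences per direction between C stomach and C middle intestine with non-overlapping arrays, and the 3 lowest p per tissue for OH against C. Kcng1, Kcng2, Kcng3, Kcnab2, Kcne4 and other genes named beyond these were chosen after their values were seen. The members and lists were chosen with earlier results of these data known. Values of 2 genes, which stay in the counts of genes but not in those of outlying arrays, are not reported here. By accession, 85 of 90 genes matched RefSeq. Alternatives were another normalization, scaling, filters, channels, probes, the ANOVA with Tukey HSD of the study's methods, a replicate block and each array left out.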

Additional observations from a re-analysis of the deposited data

Results flagged for a closer look

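In 184 groups of 4 arrays (46 channel genes), 12 had an array whose gap to its nearest neighbour exceeded Dixon's 95% critical value for the group's range, where chance gives about 1 in 20. C stomach replicate 2 stood above the other C stomach arrays for Kcna2 (3.73, the others 0.05 to 0.34), Kcng3 (2.27, the others 0.38 to 0.53) and Kcnma1 (0.89, the others 0.17 to 0.24), and below them for Kcnk5 (-0.26, the others 0.68 to 0.87). Kcna2 also had a low array in OH stomach replicate 1 (0.77, the others 2.55 to 2.76). In OH middle intestine replicate 2 there were Kcnj13 (1.38, the others -1.67 to -1.38), Kcnip2 (1.81, the others 2.91 to 3.00), Kcnmb1 (-0.19, the others 0.35 to 0.40) and Kcnv2 (-0.96, the others -0.25 to -0.16). The remaining ones were Kcna6 in C middle intestine replicate 3 (0.93, the others 0.26 to 0.33), Kcnmb1 in the same array (-0.57, the others 0.22 to 0.33) and Kcns3 in C middle intestine replicate 4 (-0.31, the others -0.97 to -0.89).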

How the results depend on the processing

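Of 31 single-gene results between C stomach and C middle intestine, 22 kept their direction and their side of the threshold under every alternative, as did 22 of 30 in OH rats. The call was lost in at least 1 alternative for, among others, Kcna2, Kcnc4, Kcng1, Kcnh2, Kcnj13, Kcnj8, Kcnk10 and Kcnn1 in C rats and for Kcna7, Kcng1, Kcnh6, Kcnj12, Kcnk1, Kcnk12, Kcnma1 and Kcns3 in OH rats. The number of channel genes passing, given without the share of all probes, ranged from 26 to 35 in C and from 26 to 33 in OH rats with each array left out. It stayed within 1.5 times under every other setting. Among these genes only Kcng1 reversed, to -0.21 in C and -0.20 in OH rats with the mean of its probes. Between OH and C stomach the count of 0 became 13 at unadjusted p, beside 10.6% of all probes, and 2 with ANOVA and Tukey HSD, beside 3.35%. It became 1 with no detection filter, 7 with array weights and 4 with the 3 stomach arrays left out (chosen after seeing the data). With each array left out it was 0 to 2, the 2 without C stomach replicate 2. For these latter settings the share of all probes is not given, so their counts are not shown to be particular to the channel genes. With those 3 arrays left out Kcnj8, Kcnh2 and Kcnf1 reversed to -0.06, -0.0957 and -0.011. Between OH and C middle intestine the count of 0 became 5 at unadjusted p, beside 10.5% of all probes, and 3 with ANOVA and Tukey HSD, beside 4.43%. It became 1 with scaling between arrays, 1 with Cy5 alone and 3 with no detection filter, where the share of all probes is not given. In Cy5 alone Kcnma1 reversed to -1.15 and Kcnd3 to -0.51. The cause was not tested. For the difference between the tissues in the response to OH the count of 0 became 2 at unadjusted p, beside 5.85% of all probes. With each array left out it was 0 to 1, the 1 being Kcnk5 without C stomach replicate 2, its lowest C stomach array.

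With the replicate number as a block (replicate block), 33 channel genes passed in C rats, 29 in OH rats and 0 in each comparison of OH with C. The share of all probes with this block is not given. The labels do not say that a number marks a rat. Same-numbered arrays of C stomach and C middle intestine correlated at 0.06 to 0.25 in their deviations from the group means, and those of OH rats at -0.12 to 0.32, so pairing was not assumed. The counts of detected genes stayed within 1.5 times with 2 of 4 arrays, with the weaker mark of a positive and significant signal, and with any probe of the gene.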
